A study of Mus musculus with 9 samples.

Results

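Matrix genes were followed in cultured mouse macrophages: collagens, laminins, fibulins, fibrillins, thrombospondins and latent TGF-β binding proteins, taken by their family symbols, and fibronectin (Fn1), Sparc, Postn, Dcn, Lum, Eln, Lox and Bgn, taken by name. The table held 73 of these genes among 24607. Macrophages were grown with 50 ng/ml macrophage colony-stimulating factor (M-CSF) from bone marrow of mice of genotype CX3CR1-gfp/+, in which green fluorescent protein replaces a copy of the fractalkine receptor gene. They were then kept in monoculture, kept with neurons of the dorsal root ganglion (DRG), or given transforming growth factor beta (TGF-β) at 0.02 ng/ml, with a labelled time of 5 d in every group. Cells were sorted on CD11b and CD64 before RNA was taken, and each condition had 3 libraries, numbered 1 to 3. Bone marrow came from 3 mice. The labels do not say whether each mouse gave cells to all conditions, and the p-values measure the spread between these libraries. The series title names the question, whether sensory neurons shape macrophage identity by way of TGF-β.

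Collagens are secreted as trimers whose chains must be made together. Fibrillar collagens build the ropes of connective tissue, whereas type IV collagen and laminins form the sheet-like basement membrane, to which type XV and XVIII collagens are bound. Latent TGF-β binding proteins and fibrillins store inactive TGF-β in the matrix, and thrombospondin 1 is among the proteins that can release it. Fibroblasts are the main makers of fibrillar collagens in most tissues, and in nerves and ganglia the glia add laminins and type IV collagen to the basement membrane around axons.

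Levels are normalized counts, that is, reads divided by 1 size factor per library. A gene was taken as present in a condition at 10 or more normalized counts in at least 2 of its 3 libraries. By that rule 33 of the 73 genes were present in monoculture, 23 were seen with neurons only, 2 (Col4a3 and Thbs3) were present with TGF-β but not in monoculture, and 15 were low everywhere. The corresponding numbers over all 24607 genes were 15094, 857, 508 and 8148. A gene seen with neurons only could still reach 10 in 1 monoculture and 1 TGF-β library, as Col6a2 did at 23.0 and 15.3. Just inside the monoculture limit stood Col4a4, whose second-highest library read 11.4, and just outside stood Thbs3 at 9.30 and Col6a2 at 8.12. Differences are log2 fold changes on the scale of log2(normalized count + 10), with the standard error of the fit, and a gene was called at an adjusted p under 0.05. Because of the added 10, a low gene's fold change understates the ratio of its levels.

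Depth ran from 46.8 to 308.8 M reads per library, and 1 read was worth 0.346 to 2.27 normalized counts. The CD11b and CD64 sort leaves macrophages. The summed level of 10 macrophage markers was of the same order in all libraries, 1022000 to 1630000. Lyz2 led this sum, with its lowest value, 537016, in monoculture 2 and its highest, 1182103, in co-culture 1. Single markers moved both ways when neurons were present. Against monoculture, Lyz2 (0.66 ± 0.145) and Mertk (2.37 ± 0.11) rose, Emr1 (-0.69 ± 0.11) and Cd14 (-1.11 ± 0.18) fell, and 6 were not called. In the co-culture libraries the summed level of 14 fibroblast markers was 1034 to 1342, against 65.6 to 138 in monoculture and 56.8 to 118 with TGF-β. Of these 14 genes, 5 were at 0 in every monoculture library and none was at 0 in every co-culture library. The 8 pericyte and smooth muscle markers summed to 2795 to 4476 in co-culture, 270.4 to 481.2 in monoculture and 957 to 1460 with TGF-β. Most of the sum with TGF-β was Cspg4, at 833.4 to 946.2. Of the 5 tested, Cspg4 alone was called with TGF-β (1.98 ± 0.28, adjusted p = 0.00394, limma), and all 5 rose in co-culture. In every TGF-β library 2 of the 8 were at 0. The glial genes Sox10 and Ngfr, at or near 0 elsewhere, stood at 100.8 to 217.3 and 209.4 to 261.2 in co-culture, although the 13 glial markers together, led by Mbp, summed to 5152 to 5739 there against 6183 to 7094 in monoculture. The 9 endothelial markers, led by Kdr, summed to 1723 to 2286 in co-culture and 2015 to 2538 in monoculture, but of the 4 tested Pecam1, Cdh5 and Flt1 rose in co-culture (2.65 ± 0.33, 1.10 ± 0.22 and 1.18 ± 0.37 on the log2 scale) and Kdr fell. The 15 sensory neuron markers, led by Uchl1, summed to 607.2 to 877.7 in co-culture and 8763 to 10080.0 in monoculture. Most of that sum was Uchl1, at 8659 to 9986 in monoculture and 431.3 to 562.1 in co-culture. Of the 5 tested, Uchl1 fell (-4.13 ± 0.12), Tubb3 rose (1.68 ± 0.41) and the rest were not called. Of the 15, 6 were at 0 in every monoculture library and none was at 0 in every co-culture library. In every group library 1 carried Y-linked reads. In libraries 2 and 3 the sum of 4 Y-linked genes was 0.504% and 0.503% of that of library 1 in co-culture, 0.0128% and 0% in monoculture and 0% in both with TGF-β. The part of these other cells in the matrix results was not tested, and more cells of a type and more RNA per cell cannot be told apart.

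**Figure D1:**
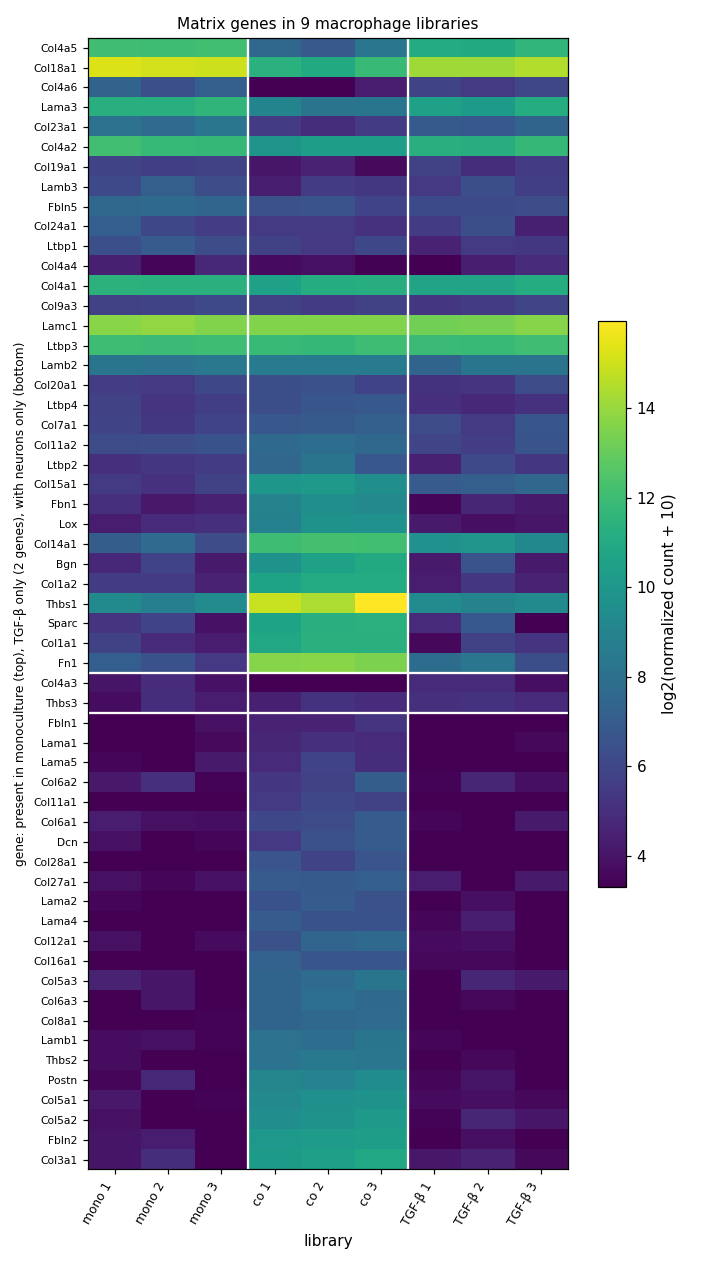
Each row is a matrix gene and each column a library (mono, monoculture; co, co-culture with DRG neurons), coloured by log2(normalized count + 10); white lines part the genes present in monoculture (top, 32 of 33 drawn), the 2 present with TGF-β but not in monoculture and the 23 seen with neurons only (bottom), and the 15 genes low everywhere are not drawn. Rows at the top of the upper block darken in the 3 co-culture columns while those at its foot brighten, and the TGF-β columns resemble monoculture in most rows.

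Most of the matrix genes present in monoculture differed in co-culture, and in both directions. Of the 33 present in monoculture, 14 rose, 9 fell and 10 were not called against monoculture, and 1 of the 14, Lox, passed the filter only through the co-culture libraries. Among all tested genes present in monoculture, 30.2% were called, 14.0% higher and 16.2% lower. The median log2 fold change was -0.04 without Lox, with rises and falls on both sides, against -0.002 for those genes as a whole. Over all 58 matrix genes that passed the filter, 37 rose and 9 fell, where 30.8% of all 16328 tested genes were called, 15.9% higher and 15.0% lower. Of the 37 risers, 24 passed the filter only through the co-culture libraries and so had to differ, namely Lox and the 23 genes seen with neurons only, and no more is read from that count. The 34 matrix genes that pass without the co-culture libraries gave 13 rises and 9 falls, against 14.1% and 15.9% of all such genes.

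The most abundant matrix gene in monoculture per exon length was Col18a1, the α1 chain of type XVIII collagen, a basement membrane collagen whose cleaved end is endostatin. It stood at 39225, 34233 and 32200 normalized counts in monoculture 1 to 3, at 2631, 2051 and 3662 in co-culture 1 to 3, and at 18291, 17925 and 22866 with TGF-β. Every co-culture library was far below every TGF-β library, which in turn was below every monoculture library. The log2 fold change was -3.69 ± 0.19 in co-culture (adjusted p = 1.31e-07, limma) and -0.84 ± 0.19 with TGF-β (adjusted p = 0.0473). The TGF-β call was lost when any 1 of 6 libraries was left out (monoculture 1, 2 or 3, co-culture 1, TGF-β 1 or 2), with an adjusted p of up to 0.182. Col15a1 encodes the closest relative of that chain, type XV collagen, which carries a similar endostatin-type end. It was low in monoculture at 34.1, 25.3 and 44.2, reached 1029, 1119 and 774.1 with neurons and 114.2, 133.3 and 168.2 with TGF-β. The groups did not overlap, and the order was the reverse of that of Col18a1. Its log2 fold change was 4.47 ± 0.23 in co-culture (adjusted p = 5.43e-09) and 1.74 ± 0.23 with TGF-β (adjusted p = 0.0011).

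The ratio of the paired genes within a library does not depend on library size. Here and below, per kb means per kb of all annotated exons of a gene merged. On that measure Col18a1 was 1040, 1220 and 659 times as high as Col15a1 in monoculture. The ratio was 145, 122 and 123 with TGF-β, and 2.31, 1.66 and 4.28 in co-culture. The log2 difference of this ratio from monoculture was -8.54 in co-culture and -2.87 with TGF-β, with no overlap in either case. The exact two-sided permutation p was 0.1 for each, the smallest that 3 libraries against 3 allow. Col23a1, a membrane-spanning collagen that can be shed from the cell surface, moved like Col18a1. It stood at 263.0, 204.9 and 300.7 in monoculture and 36.4, 21.1 and 35.9 in co-culture (-2.70 ± 0.27, adjusted p = 2.47e-06), and at 109.7, 102.7 and 156.8 with TGF-β (-1.01 ± 0.27, adjusted p = 0.0667). The last change was called under DESeq2 (adjusted p = 0.00739), a pseudocount of 50, a replicate block or without TGF-β 3. The other 3 collagens of the membrane-spanning kind, Col13a1, Col17a1 and Col25a1, were low everywhere.

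**Figure D2:**
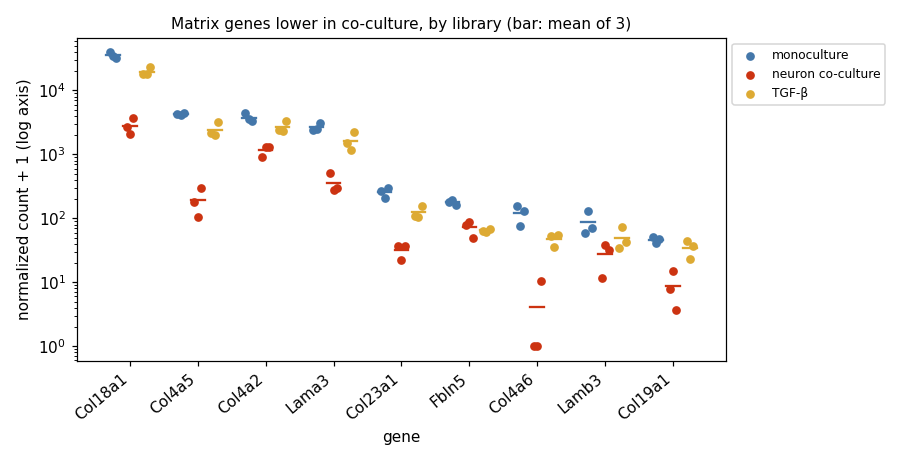
Normalized counts plus 1 (log axis) of the 9 matrix genes present in monoculture that fell in co-culture, with a point per library and a bar at the mean of 3. Co-culture libraries lie below all monoculture libraries for all 9, and the TGF-β libraries lie below all monoculture libraries for 7 of them, the exceptions being Lamb3 and Col19a1. Of all tested genes present in monoculture, 23.6% had every co-culture library, and 10.3% every TGF-β library, below every monoculture library. The 9 were picked for their fall against these same monoculture libraries, so no more is read from either count. The share of all genes that fell in co-culture with that TGF-β pattern was not computed.

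Of the 6 basement membrane collagen genes, 3 fell in co-culture (Col4a5, Col4a6 and Col4a2) and 3 were not called. Type IV collagen has 6 chains, encoded in pairs of genes that face away from each other. Col4a5 stood at 4326, 4146 and 4511 in monoculture, at 177.4, 104.7 and 299 in co-culture and at 2146, 2004 and 3163 with TGF-β. Its neighbour Col4a6, whose annotated start lies 1309 bases away on chromosome X, stood at 152.6, 74.8 and 131, at 0, 0 and 9.30, and at 51.1, 35.0 and 54.5. For both genes the co-culture libraries were lowest and the TGF-β libraries lay between without touching either group. Log2 fold changes in co-culture were -4.53 ± 0.33 (adjusted p = 8.03e-06) for Col4a5 and -3.33 ± 0.36 (adjusted p = 5.65e-06) for Col4a6, and neither was called with TGF-β (adjusted p = 0.26 and 0.119).

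The pair Col4a1 and Col4a2, which make the common type IV trimer, separated. Col4a2 fell from 4382, 3551 and 3336 in monoculture to 901.5, 1308 and 1298 in co-culture (-1.69 ± 0.17, adjusted p = 1.29e-05), with 2415, 2301 and 3334 under TGF-β. Col4a1 stood at 2751, 2529 and 2548 in monoculture, 1495, 2212 and 2321 in co-culture and 1664, 1670 and 2241 with TGF-β. The co-culture libraries of Col4a1 were also below all of monoculture, but the fold change of -0.40 ± 0.16 was not called (adjusted p = 0.0781, and 0.036 to 0.338 over the alternatives). Per kb, Col4a2 was 1.80, 1.58 and 1.48 times as high as Col4a1 in monoculture, 1.64, 1.55 and 1.68 times with TGF-β, and 0.680, 0.667 and 0.630 times in co-culture. The order of the chains was inverted in all 3 co-culture libraries, by a log2 difference of -1.29 (exact two-sided permutation p = 0.1, the smallest possible). The first exons of these genes overlap by 22 bases on opposite strands of chromosome 8 (mm10; annotated starts 11312826 for Col4a1 and 11312805 for Col4a2), and whether the counting used strand is not stated. The third pair was scarce. Col4a4 was not called, and Col4a3 stood at 6.49, 20.7 and 5.42 in monoculture, at 18.0, 19.7 and 4.54 with TGF-β and at 0 in every co-culture library, where up to 3 reads over the group, or 0.529 normalized counts, remain possible.

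Among laminins, which are cross-shaped trimers of an α, a β and a γ chain, the main γ chain was not called while α and β chains were. Lamc1, which encodes the γ1 chain of most laminins, stood at 13139, 15254 and 12047 in monoculture, 11845, 12125 and 12073 in co-culture and 9756, 10456 and 12701 with TGF-β. The co-culture values lay within or just below the monoculture range and were not called (-0.16 ± 0.11, adjusted p = 0.296). Lama3, the α chain of an epithelial laminin, fell from 2397, 2526 and 3073 in monoculture to 505.9, 276.6 and 292.4 in co-culture, with 1487, 1160 and 2236 under TGF-β. Every library with neurons was below every other library (-2.91 ± 0.27, adjusted p = 1.89e-05). The β chain of the same laminin, Lamb3, fell as well, from 58.5, 131.2 and 69.7 to 10.7, 37.5 and 31.2 (-1.42 ± 0.39, adjusted p = 0.013), a call that was lost without monoculture 2 or co-culture 1 (adjusted p at most 0.076). Per kb, Lama3 amounted to 0.140, 0.127 and 0.196 of Lamc1 in monoculture, 0.117, 0.0854 and 0.136 with TGF-β, and 0.0329, 0.0176 and 0.0186 with neurons (log2 difference from monoculture -2.78, exact two-sided permutation p = 0.1).

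Lamb2, the β chain of nerve and kidney basement membranes, stood at 287.4, 270.5 and 320.0 in monoculture and at 375.9, 369.6 and 366.1 in co-culture. The groups did not overlap but the change was not called (0.33 ± 0.21, adjusted p = 0.271). The other 5 laminin chains that were measurable, Lama1, Lama2, Lama4, Lama5 and Lamb1, were seen with neurons only. Highest of them per kb was Lamb1, the broadly expressed β1 chain, at 255.7, 223.5 and 291.0 in co-culture against at most 4.6 in any other library. Lama2, the α chain of muscle and Schwann cell laminin, reached 78.4 to 118.0 with neurons, and Lama4, the α chain of vessels and peripheral nerve, 81.3 to 116.4. Per kb Lamb2 exceeded Lamb1 by 95.8 to 673 times in monoculture, on fewer than 5 normalized counts of Lamb1, and by 2.05 to 2.7 times in co-culture.

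**Figure D3:**
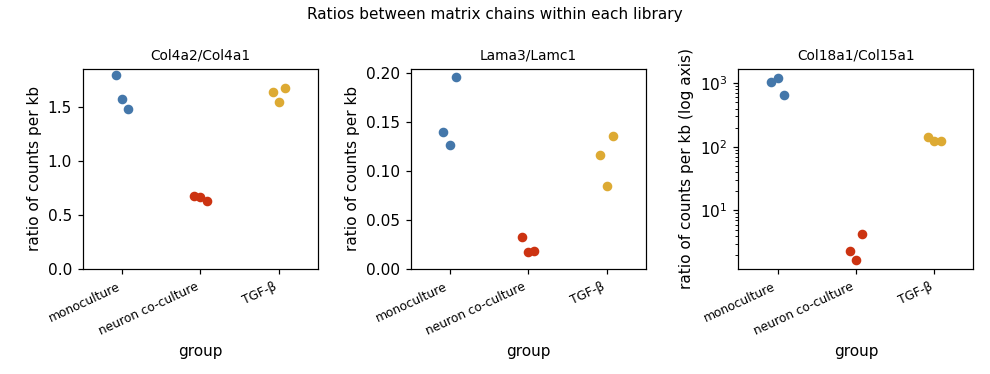
Ratios of normalized counts per kb between matrix chains within each library, by group, with a point per library; the axis of Col18a1 to Col15a1 is logarithmic. The co-culture ratios lie below all others for the 3 pairs, and for Col18a1 to Col15a1 the TGF-β libraries, at 122 to 145, lie between the other groups.

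Fbln5 and Col19a1 completed the falls. Fbln5, an elastic fibre protein that binds integrins, was at 177, 194.5 and 161.9 in monoculture, 79.0, 86.7 and 47.8 in co-culture and 61.6, 61.2 and 68.2 with TGF-β. It fell to a similar level in both treated groups, whose difference was 0.11 ± 0.25 (adjusted p = 0.811). Its log2 fold change was -1.24 ± 0.25 in co-culture (adjusted p = 0.00164) and -1.35 ± 0.25 with TGF-β (adjusted p = 0.0106). The TGF-β call was lost without monoculture 2 or TGF-β 1 (adjusted p at most 0.0597). Col19a1, a fibril-associated collagen, fell from 50.3, 40.3 and 45.7 to 6.93, 14.1 and 2.66 in co-culture (-1.68 ± 0.33, adjusted p = 0.00124), with 43.6, 21.9 and 36.4 under TGF-β. Col24a1, a fibrillar collagen, was not called.

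Thbs1, the matricellular protein thrombospondin 1, was the highest matrix gene per length in co-culture. It stood at 644.6, 422.5 and 662.5 in monoculture, at 674.1, 491.7 and 636.3 with TGF-β, and at 30131, 21623 and 63025 in co-culture. Co-culture libraries were far above the others, which overlapped. The log2 fold change was 5.91 ± 0.39 in co-culture (adjusted p = 1.39e-05) and 0.07 ± 0.39 with TGF-β (adjusted p = 0.963). Thbs2, a relative that lacks TGF-β activating ability, was seen with neurons only, at 272.0, 329 and 302.3 in co-culture against 3.25 at most in any other library. Thbs3 was near the limit of presence throughout and shares 318 exonic bases with the much higher gene Mtx1 on the opposite strand, and Thbs4 was low everywhere.

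Fn1, which encodes fibronectin, the glycoprotein that cells grip through integrins, stood at 128.3, 80.6 and 32.5 in monoculture, 207.4, 297.2 and 72.7 with TGF-β and 13016, 13113 and 11246 in co-culture. Monoculture and TGF-β overlapped, and co-culture was far above both. The log2 fold change in co-culture was 7.26 ± 0.56 (adjusted p = 3.15e-05), and that with TGF-β, 1.12 ± 0.56, was not called (adjusted p = 0.417). Sparc, a collagen-binding glycoprotein, and Bgn, the small proteoglycan biglycan, were also far higher in co-culture, while monoculture and TGF-β overlapped. Sparc was at 29.2, 47.2 and 5.42 in monoculture, 1595, 2395 and 2664 in co-culture (6.06 ± 0.85, adjusted p = 0.000842) and 18.8, 100.5 and 0 with TGF-β. Bgn was at 16.2, 47.2 and 8.52 in monoculture, 898.4, 1460.4 and 2026 in co-culture (5.53 ± 0.68, adjusted p = 0.000202) and 9.02, 87.4 and 9.09 with TGF-β. Of the same group, Postn (periostin) stood at 522.8, 474.3 and 706.3 in co-culture and Dcn (decorin) at 33.3, 78.1 and 118.3, both seen with neurons only, whereas Lum (lumican) was low everywhere.

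**Figure D4:**
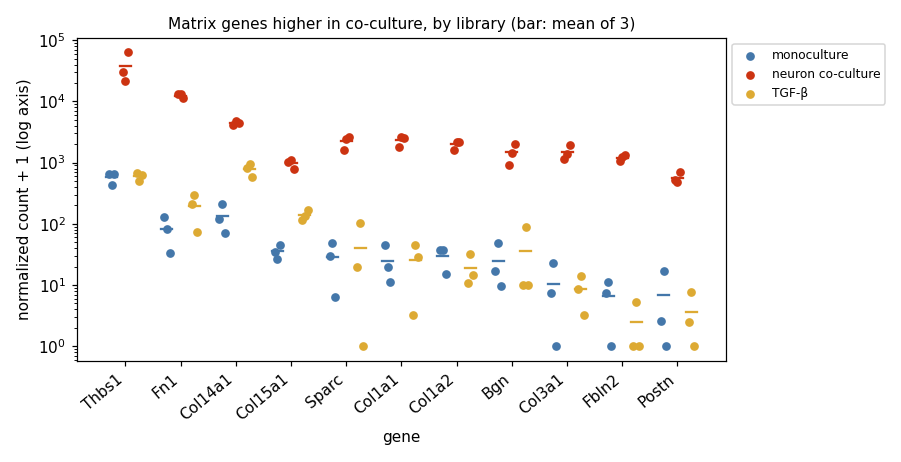
Normalized counts plus 1 (log axis) of 11 matrix genes that were higher in co-culture, with a point per library and a bar at the mean of 3. Co-culture libraries lie above all others for each gene, and TGF-β libraries lie above all monoculture libraries for Col14a1 and Col15a1 alone among these 11. Of all tested genes present in monoculture, 21.3% had every co-culture library, and 7.33% every TGF-β library, above every monoculture library. The 11 were picked as higher in co-culture, so no more is read from these counts.

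Col14a1 encodes type XIV collagen, which coats collagen fibrils and was the only matrix gene besides Col15a1 to rise with TGF-β. It stood at 120.2, 206.0 and 69.0 in monoculture, at 819.9, 948.4 and 579.5 with TGF-β and at 4137, 4838 and 4516 in co-culture. The groups did not overlap. The log2 fold change was 2.57 ± 0.32 with TGF-β (adjusted p = 0.00331), 5.11 ± 0.32 in co-culture (adjusted p = 1.41e-06), and 2.53 ± 0.32 between co-culture and TGF-β (adjusted p = 0.000294). Other fibril-associated collagens did not share this. Col12a1, a collagen of related structure, was seen with neurons only, at 76.6, 161.8 and 186.7 in co-culture (at most 4.37 with TGF-β), as was Col16a1 at 94.5 to 145.9. Col9a3 and Col20a1 were not called in any comparison.

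Fibrillar collagens were low outside co-culture, and Col24a1 was the 1 tested fibrillar gene that did not rise there. It stood at 126.6, 56.4 and 38.7 in monoculture, 34.3, 34.4 and 24.6 in co-culture and 37.6, 72.1 and 11.4 with TGF-β. Every co-culture library of Col24a1 was below every monoculture library, but the change was not called (-0.90 ± 0.47, adjusted p = 0.177, limma). Col1a1, the α1 chain of type I collagen, stood at 43.8, 18.4 and 10.1 in monoculture, 1818, 2590 and 2561 in co-culture (6.20 ± 0.51, adjusted p = 4.17e-06) and 2.25, 43.7 and 27.3 with TGF-β. Col1a2, its α2 chain, stood at 35.7, 36.8 and 13.9, at 1610, 2140 and 2203 (5.73 ± 0.32, adjusted p = 1.09e-08), and at 9.77, 30.6 and 13.6. Per kb, Col1a1 was 2.14, 2.29 and 2.2 times as high as Col1a2 in co-culture, a spread narrower than the 0.947 to 2.32 of monoculture, where few reads lay behind each value. The merged exon lengths used were 6.563 kb for Col1a1 and 12.426 kb for Col1a2. Before division by length the co-culture means were 2323 and 1984, so the size of the ratio depends on these lengths. Col11a2 rose from 66.6, 69.1 and 81.4 to 194.4, 222.7 and 183.4 (1.35 ± 0.27, adjusted p = 0.00157). The other 6 fibrillar genes measured, Col3a1, Col5a1, Col5a2, Col5a3, Col11a1 and Col27a1, were seen with neurons only, led per kb by Col3a1 at 1151, 1382 and 1920 and Col5a2 at 716.2, 889.2 and 1139. Single libraries outside co-culture still passed 10 for Col3a1 (21.9 in monoculture 2, 13.1 in TGF-β 2) and Col5a2 (15.3 in TGF-β 2). The same held for Col5a3 (13.0 in monoculture 1, 15.3 in TGF-β 2).

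Elastic fibre genes other than Fbln5 were highest with neurons where they were measurable, as were beaded filament, anchoring and short-chain collagens. Fbn1, which encodes the microfibril protein fibrillin 1, rose from 22.7, 8.06 and 12.4 to 497.2, 779.1 and 599.3 (4.72 ± 0.35, adjusted p = 1.28e-07). Lox, the lysyl oxidase that crosslinks collagen and elastin, was at 9.74, 18.4 and 23.2 in monoculture, 451.5, 876.0 and 830.5 in co-culture and 9.02, 4.37 and 6.82 with TGF-β. For Lox no test is given, since it entered the fit through co-culture. Eln, the substrate elastin, was low everywhere. Fbln2 was seen with neurons only, at 1059, 1232 and 1314 in co-culture. So were the type VI chains Col6a1 (56.8, 64.9 and 117.6), Col6a2 (30.5, 46.9 and 120.3) and Col6a3 (158.7, 238.3 and 198.7) and the type VIII chain Col8a1 (155.2, 180.5 and 203.3), which had a single read in the 6 other libraries together. Col7a1, which anchors skin to its basement membrane, was present in monoculture and rose from 50.3, 31.1 and 48.0 to 97.7, 109.4 and 134.9 (1.23 ± 0.32, adjusted p = 0.00927).

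The 4 latent TGF-β binding proteins were all present in monoculture and went separate ways. Ltbp3, the most abundant, was at 4153, 3899 and 4149 in monoculture, 3777, 3328 and 4141 in co-culture and 3817, 3630 and 4354 with TGF-β. All 3 groups overlapped (co-culture -0.12 ± 0.10, adjusted p = 0.389). Ltbp1 was at 74.7, 112.8 and 69.0 in monoculture, 44.4, 32.0 and 56.5 in co-culture and 13.5, 35.0 and 31.8 with TGF-β. It fell with TGF-β (-1.40 ± 0.33, adjusted p = 0.04) but was not called in co-culture (-0.81 ± 0.33, adjusted p = 0.0804), and the call with TGF-β was lost under edgeR, a smaller pseudocount, no filter, a replicate block and each of 6 left-out libraries (monoculture 1, 2 or 3, co-culture 1, TGF-β 1 or 2), with an adjusted p of up to 0.19. Ltbp2 rose in co-culture from 22.7, 29.9 and 38.0 to 171.5, 283.6 and 99.0 (2.18 ± 0.43, adjusted p = 0.00131), and Ltbp4 from 43.8, 27.6 and 41.1 to 72.4, 92.2 and 103 (1.07 ± 0.28, adjusted p = 0.00938).

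With TGF-β alone, then, 2 of the 33 genes present in monoculture rose (Col14a1, Col15a1), 3 fell (Col18a1, Fbln5, Ltbp1) and 28 were not called. Of all tested genes present in monoculture, 2.71% were called in this comparison, 1.2% higher and 1.51% lower, and of all 16328 tested genes 2.52%, 1.13% higher and 1.39% lower. Calls among the matrix genes numbered 2 without monoculture 2 or TGF-β 1, 3 without monoculture 1, monoculture 3 or TGF-β 2, and 10 without TGF-β 3, and Col14a1 and Col15a1 were called each time. The median log2 fold change of the 33 was -0.31, against -0.02 for all tested genes present in monoculture. In 11 of the 33 genes every TGF-β library lay below every monoculture library, whereas this held for 10.3% of all tested genes present in monoculture. Those 11 included 7 of the 9 genes that fell in co-culture. The matching share over all genes that fell in co-culture was not computed, so no more is read from that count. The reverse, with every TGF-β library above monoculture, held for Col14a1 and Col15a1, against a background of 7.33%. Co-culture and TGF-β are compared here with the same monoculture libraries, so shared direction between the 2 comparisons is given as values only. Set directly against TGF-β, co-culture had 37 matrix genes higher and 8 lower, where 25.3% of all tested genes were called, 13.4% higher and 11.9% lower. The same 24 genes that passed the filter only through co-culture are among the 37, and of the 34 others 13 were higher, 8 lower and 13 not called, against 11.7% higher and 12.7% lower over all genes that pass without co-culture.

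Per kb of merged exons the summed matrix level was 9930, 9240 and 8680 normalized counts in monoculture. It was 5650, 5670 and 7160 with TGF-β and 11500, 10900 and 18100 in co-culture. TGF-β libraries were lowest and co-culture libraries highest, without overlap. Col18a1 supplied 52.8 to 56.3% of the sum in monoculture, 45 to 46.1% with TGF-β and 2.67 to 3.27% in co-culture. Thbs1 supplied 32.6 to 57.2% in co-culture and 0.753 to 1.97% elsewhere. Lamc1 supplied 16.0 to 20.0% in monoculture, 20.9 to 22.3% with TGF-β and 8.04 to 13.4% in co-culture. Fibrillar collagens reached 5.91 to 8.91% of the sum in co-culture, against 0.231 to 0.529% in the other libraries.

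**Figure D5:**
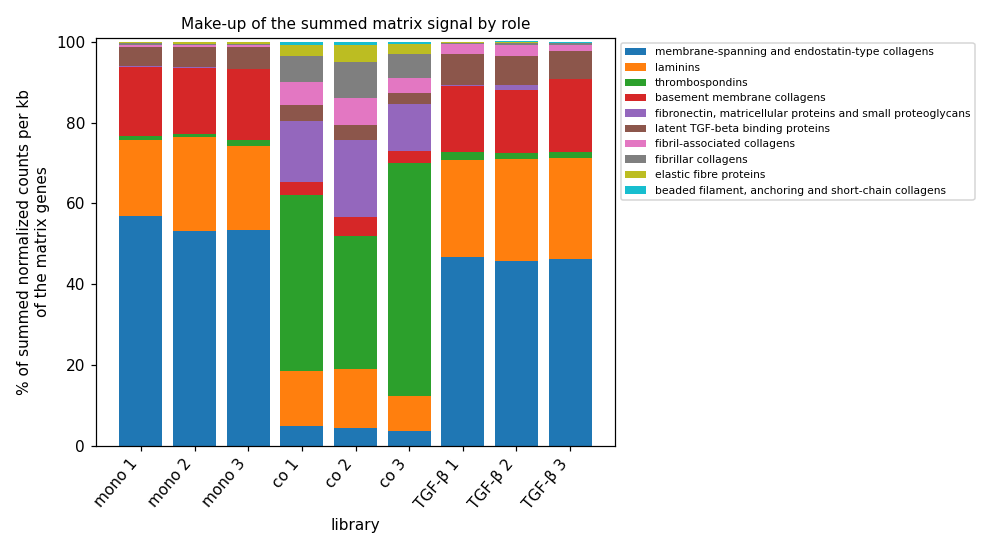
Share of each role in the summed normalized counts per kb of the 73 matrix genes, with a bar per library (mono, monoculture; co, co-culture). The endostatin-type and membrane-spanning collagens make up 53.2 to 56.8% of each monoculture bar and 3.58 to 4.73% of each co-culture bar, where thrombospondins make up 33.0 to 57.5%.

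The 23 genes seen with neurons only were a small part of the whole. Their normalized counts summed to 5881, 6902 and 8385 in co-culture 1 to 3, or 0.0055%, 0.0066% and 0.0076% of the library, against 32.5 to 95.5 in monoculture and 33.1 to 100.5 with TGF-β. Co-culture 1 was the lowest of the 3 in 15 of the 23 genes and co-culture 3 the highest in 15. The fibroblast markers summed to 1034, 1342 and 1337 in the same 3 libraries, and the endothelial markers to 1723, 2139 and 2286. Pericyte and smooth muscle markers summed to 3051, 4476 and 2795, glial markers to 5739, 5152 and 5689, and sensory neuron markers to 732.8, 607.2 and 877.7. Whether any of these orders bears on the 23 genes was not tested. In monoculture 4 of the 23, Col11a1, Col16a1, Col28a1 and Lama4, had 0 reads, which allows up to 3 reads over the group, or 1.08 normalized counts, and covers counting error only. Among the 15 genes low everywhere were Col2a1, Col9a1 and Col10a1 of cartilage, Col17a1 of skin, Eln, Lum, Fbn2 and Lamc3, and the highest value of any of the 15 in any library was 7.97 (Lum in co-culture 3).

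Upstream sequences are printed for 3 collagen genes whose levels separated the groups: Col18a1, which fell, Col15a1, which rose in both treated groups, and Col3a1, which was seen with neurons only. RefSeq windows of GRCm38.p6 were found for 52 of the 73 genes, 62 windows in all. The 250 bases before the RefSeq start are printed 5′ to 3′ on the gene's strand, with the pentamer CAGAC or its reverse complement GTCTG, a core sequence that SMAD proteins of the TGF-β pathway can bind, in capitals. The windows are chr10:77166531-77166780 (minus strand), chr4:47207762-47208011 (plus strand) and chr1:45311288-45311537 (plus strand).
Col18a1: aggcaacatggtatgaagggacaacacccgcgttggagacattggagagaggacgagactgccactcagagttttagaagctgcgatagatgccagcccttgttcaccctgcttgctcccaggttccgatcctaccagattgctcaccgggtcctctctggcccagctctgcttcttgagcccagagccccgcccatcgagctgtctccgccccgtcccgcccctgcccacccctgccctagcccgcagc
Col15a1: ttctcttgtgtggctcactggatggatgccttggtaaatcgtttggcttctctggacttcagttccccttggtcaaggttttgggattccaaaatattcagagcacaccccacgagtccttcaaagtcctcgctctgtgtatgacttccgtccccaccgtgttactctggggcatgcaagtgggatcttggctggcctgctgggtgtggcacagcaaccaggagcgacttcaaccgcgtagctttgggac
Col3a1: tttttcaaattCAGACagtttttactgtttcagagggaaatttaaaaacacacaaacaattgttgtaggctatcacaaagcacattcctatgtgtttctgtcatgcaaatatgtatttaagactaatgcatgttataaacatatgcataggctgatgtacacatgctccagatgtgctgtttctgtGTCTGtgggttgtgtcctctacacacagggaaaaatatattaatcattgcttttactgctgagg
The printed windows of Col18a1 and Col15a1 hold neither form, and that of Col3a1 holds CAGAC starting 239 bases and GTCTG starting 64 bases before the start. Of all 32851 RefSeq windows of this length, 42.2% hold at least 1 of the forms, as do 33 of the 62 windows of matrix genes (53.2%), 50.0% of the windows of genes present in monoculture and 71.4% of the 21 windows of genes seen with neurons only. A match is a description of letters and not a measured binding site. Col18a1 has a second annotated start whose window lies mostly within an exon and is not printed. That window does hold GTCTG, starting 216 bases before the start, so the windows of Col18a1 differ. The window of Col23a1, which also fell in co-culture, was searched too and holds neither form.

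Genes that process or receive the matrix were taken from lists, and counts are given for those that pass the filter without the co-culture libraries, where 14.1% of all such genes rose in co-culture, 15.9% fell and the median log2 fold change was 0.003. Of 19 such genes for collagen synthesis, processing and crosslinking, 6 rose, 4 fell and 9 were not called (median 0.06). Another 8 were tested only because of co-culture, and with them the counts were 13 and 4 of 27. Tgm2, the crosslinking enzyme transglutaminase 2, rose from 3241, 3224 and 2118 to 37674, 45476 and 52694 with neurons (3.99 ± 0.16, adjusted p = 9.48e-09) and stood at 5584, 5555 and 5020 with TGF-β (0.94 ± 0.16, adjusted p = 0.0117). The prolyl hydroxylase subunit P4ha2 rose by 0.95 ± 0.12, while the hydroxylysine glycosyltransferase Colgalt1 and the prolyl hydroxylation partner Crtap each fell by 0.33 on the log2 scale. Of 19 matrix receptors, 7 rose, 8 fell and 4 were not called (median 0.28), or 11 and 8 of 24 with the 5 that were tested only because of co-culture. Integrin αv (Itgav, 0.87 ± 0.10), β5 (Itgb5, 1.95 ± 0.10) and β3 (Itgb3, 0.72 ± 0.16), which form receptors for fibronectin and latent TGF-β, rose, whereas syndecan 1 (Sdc1, -2.13 ± 0.23), Cd44 (-1.02 ± 0.11) and syndecan 3 (Sdc3, -0.91 ± 0.10) fell. Upper-quartile scaling, which moved the median of all genes by 0.211, gave 14 higher and 4 lower of the 24 receptors and 17 and 2 of the 27 synthesis genes. Of 15 other matrix genes, 5 rose, 2 fell and 8 were not called (median 0.02), or 14 and 2 of 25 with the 10 that were tested only because of co-culture. Among them were rises of Ecm1 (1.39 ± 0.10), Tgfbi (0.93 ± 0.09) and the basement membrane linker Nid2 (0.88 ± 0.11) and a fall of osteopontin (Spp1, -0.73 ± 0.20). With TGF-β, Tgm2 and Itgb5 (0.73 ± 0.10, adjusted p = 0.00158) rose, while Sdc3 (-0.45 ± 0.10) and Vcan (-1.06 ± 0.19) fell. Tnc was low outside co-culture, at 3.25, 0 and 0.775 in monoculture and 12.0, 13.1 and 13.6 with TGF-β. It counts among the 15 only through the TGF-β libraries, so no test of it against monoculture is given for TGF-β.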

How the data were processed

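RNA of the 9 libraries was sequenced from 10 ng with the SMART-Seq Stranded Kit, per the labels' protocols. The submitters' processing notes list the genome build mm10, R 3.6.1, DESeq2 1.24.0, STAR 2.7.3 and bcl2fastq 2.20, without giving their roles. The counting program, its use of strand and any filter are not given in the sources used here. The deposited values are a signal per gene and library: in each column 100% of values were whole multiples (within 0.05) of what 1 read is worth, so they were read as gene read counts that the authors divided by a size factor. Exact depths (46.8 to 308.8 M reads) came from those steps.

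Genes at 10 or more in at least 3 libraries were tested, 16328 of 24607, with limma 3.58.1 (trend, robust) in R 4.3.3 on log2(value + 10), in 1 fit of all 9 libraries. P-values were adjusted by Benjamini-Hochberg over all tested genes. Upper-quartile scaling, edgeR 4.0.16 and DESeq2 1.42.0 on the recovered reads, other pseudocounts, filters and presence limits, a replicate block and leaving out each library were alternatives. Of the deposited identifiers, 24335 matched GENCODE M21, from which lengths and coordinates (mm10) were taken. The length of a gene is that of all its annotated exons merged, which can exceed that of any single transcript.

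The genes, roles and lists were chosen with earlier results of these data known. Named genes were, per role, the 4 of highest mean, every gene called with TGF-β, every gene present in monoculture that fell in co-culture, the 2 genes on each side of the presence limit, and in each pathway list the 3 largest called rises and falls among genes above the median level. Genes named outside this rule, the Y-linked genes and the ratios were chosen after values were seen. Reads that overlapping genes share could not be assigned, and several of the matrix genes overlap another gene's exons, Fbn1 over 20.1% and Ltbp2 over 9.34% of their exonic length. Of the genes chosen by this rule, 1 is not reported here.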

Additional observations from a re-analysis of the deposited data

How the results depend on the processing

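No matrix gene named here changed direction among called results. Counts of calls in either direction together stayed within 1.5 times the stated ones under other pseudocounts, filters, edgeR, DESeq2 and upper-quartile scaling. By direction, upper-quartile scaling gave 4 in place of 8 lower receptors and 2 in place of 4 lower synthesis genes, and a filter of 50 gave 8 in place of 14 higher genes of the other matrix list. At a presence limit of 3 normalized counts, 14 genes were seen with neurons only, 13 of them among the 23, because low reads in monoculture then count as present. When 1 library was left out and the filter redone, calls among the matrix genes ranged from 29 to 48 (co-culture against monoculture), 2 to 10 (TGF-β against monoculture, with the same range among the 33 present in monoculture) and 27 to 47 (co-culture against TGF-β). Of the 33, 22 to 24 were called in co-culture. Leaving out a co-culture library cut the tested matrix genes from 58 to 42. With the same genes tested throughout, an alternative added after seeing the data, the ranges were 45 to 48, 2 to 10 and 43 to 47. Calls in the pathway lists ranged from 11 to 17 (synthesis), 13 to 20 (receptors) and 9 to 16 (other matrix), and from 15 to 17, 17 to 20 and 14 to 16 with the same genes tested. Presence in monoculture ranged from 33 to 40 genes and presence with neurons only from 18 to 23. The labels do not say that a replicate number marks a mouse. Library 1 carried Y-linked reads in every group, while correlations of same-numbered libraries ran from -0.147 to 0.372, so no pairing was assumed in the main test. With a replicate block 46, 5 and 45 matrix genes were called in the 3 comparisons, as without it, 4 of the 5 being the same genes, Ltbp1 was lost and Col23a1 gained. Depth limits low genes: 1 read in TGF-β 3 is worth 2.27 normalized counts.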
